A study of Mus musculus with 204 samples.

Results

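The genes described are 8 chains of the basement membrane scaffold: the laminin chain genes Lama5, Lamb3, Lamc1 and Lamc3, and the type IV collagen genes Col4a3, Col4a4, Col4a5 and Col4a6. They were taken by name from the 13153 genes of the deposited table, and all 8 were found. The libraries come from tissues of wild-type male C57BL/6J mice. DIO (diet-induced obese) mice ate a diet with 60% fat for 10 weeks, and lean mice ate chow with 13.1% fat. RNA was sequenced from 21 tissues, and 18 of them have 5 DIO and 5 lean libraries. Subcutaneous fat has 3 DIO and 5 lean libraries, mesenteric fat has 4 DIO and 3 lean libraries, and EDL muscle has 5 DIO and 4 lean libraries. The ages that the labels give for arrival and for the start of the diet contradict each other, so no age is stated here. The labels do not tie libraries to mice, and they do not say whether the libraries of a group come from separate mice, so p-values measure the spread between these libraries.

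Basement membranes are thin sheets of matrix that underlie epithelia and endothelia and wrap each adipocyte, muscle fibre and peripheral nerve. Laminins are trimers of an alpha, a beta and a gamma chain that polymerise at the cell surface, and type IV collagen trimers form a second, covalently linked network joined to them. Chain composition differs between tissues. The chains of Col4a3, Col4a4 and Col4a5 build the network of the mature glomerular filter, whose loss causes Alport syndrome. Chains of Col4a5 and Col4a6 occur together around smooth muscle and under several epithelia. Lamb3 encodes the beta chain of the anchoring laminin of skin and other epithelia. Lamc1 encodes the gamma chain of most laminins, Lamc3 a gamma chain of narrower distribution, and Lama5 an alpha chain of mature vascular and epithelial basement membranes.

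The type IV collagen genes lie as pairs transcribed away from each other. On GRCm38, Col4a4 lies on the minus strand of chromosome 1 at chr1:82448423-82586849 and Col4a3 on the plus strand at chr1:82586921-82722059, with 71 bases between their annotated starts. Col4a6 (minus strand, chrX:141165403-141474076) and Col4a5 (plus strand, chrX:141475385-141689234) are 1308 bases apart. The start regions are shown because the annotated start of Col4a3 lies inside the RefSeq window of Col4a4, whereas Col4a6 and Col4a5 have separate windows. Col4a3 matched no RefSeq window of its own. In the RefSeq window of Col4a4 (GRCm38.p6, chr1:82586800-82587099, minus strand) capitals mark the 71 bases between both starts, Col4a3 beginning at base 179 and running leftward and Col4a4 beginning at base 251 and running rightward. In the windows of Col4a5 (chrX:141475169-141475468, plus strand) and Col4a6 (chrX:141474027-141474326, minus strand) capitals mark motif matches.
Col4a4 and Col4a3: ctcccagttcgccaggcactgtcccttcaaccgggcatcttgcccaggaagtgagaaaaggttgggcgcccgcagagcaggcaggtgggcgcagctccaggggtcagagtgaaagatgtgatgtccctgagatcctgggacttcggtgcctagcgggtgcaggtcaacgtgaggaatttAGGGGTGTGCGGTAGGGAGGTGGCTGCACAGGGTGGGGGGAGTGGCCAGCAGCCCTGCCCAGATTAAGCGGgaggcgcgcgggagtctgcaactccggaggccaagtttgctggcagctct
Col4a5: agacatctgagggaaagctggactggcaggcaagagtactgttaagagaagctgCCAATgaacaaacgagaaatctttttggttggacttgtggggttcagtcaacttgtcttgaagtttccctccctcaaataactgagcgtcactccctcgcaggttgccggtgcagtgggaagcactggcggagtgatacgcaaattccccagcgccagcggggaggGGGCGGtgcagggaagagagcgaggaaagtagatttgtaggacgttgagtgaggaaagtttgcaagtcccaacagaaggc
Col4a6: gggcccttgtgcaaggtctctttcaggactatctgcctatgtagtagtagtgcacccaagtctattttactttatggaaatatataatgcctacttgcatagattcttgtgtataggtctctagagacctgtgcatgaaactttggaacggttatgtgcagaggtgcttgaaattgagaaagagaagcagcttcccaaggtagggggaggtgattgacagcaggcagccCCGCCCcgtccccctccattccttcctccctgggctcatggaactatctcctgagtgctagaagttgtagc
Each window was searched on both strands for 5 motifs. The GC box, GGGCGG, occurs in 35.7% of the 32851 RefSeq promoter windows of this length and the CCAAT box in 37.4%. The TATA box, spelled TATAAA, occurs in 13.6%, the AP-1 element, spelled TGANTCA, in 7.81% and the E-box, spelled CACGTG, in 7.15%. The window of Col4a4, which includes the annotated start of Col4a3, held none of these motifs, which says only that the letters are not in this window. Col4a5 held 1 CCAAT and 1 GC box, and Col4a6 held 1 GC box. RefSeq windows matched 5 of the 8 genes, and those of Lama5 and Lamb3 are not printed.

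The laminin genes are spread over chromosomes 1 and 2. Lama5 lies at chr2:180176373-180225859 on the minus strand and Lamc3 at chr2:31887291-31946539 on the plus strand. Lamb3 lies at chr1:193207699-193343878 on the plus strand and Lamc1 at chr1:153218922-153332786 on the minus strand. The Lamb3 locus, as annotated from base 193207699, spans the opposite-strand genes Hsd11b1 and G0s2, with 0 bases of shared exon. RefSeq windows of Lamb3 lie at chr1:193301744-193302043 and chr1:193301993-193302292, beyond the ends of Hsd11b1 (193264075) and G0s2 (193273217). By those RefSeq starts both genes lie outside Lamb3. Exons of Lamc3 share 382 bases with the antisense gene Gm13441, and those of Col4a3 share 563 bases with C430014B12Rik. The strand setting of the counting is not given in the sources used here, so reads in those shared bases cannot be assigned.

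Values are CPM, read counts scaled by the library total. The median library held 20.7 M reads and the extremes 6.58 and 129.7 M, so 1 CPM stands for 6.58 reads in the shallowest library and 20.7 reads in the median one. Some libraries stood apart from their label. Of 10 adrenal libraries, 3 (DIO 1, DIO 2 and lean 1) held at most 0.173 CPM of the adrenal cortex enzyme gene Hsd3b1, against 4239 to 12650 CPM in the other 7. Lean 1 and lean 3 of eWAT, and lean 3 and lean 5 of kidney, held more of the epithelial factor Ehf than the other lean libraries of their tissue. Results that rest on these libraries are given with and without them.

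Across lean tissues, Col4a3 and Col4a4 peaked together in kidney, whereas Col4a5 and Col4a6 peaked in different organs. Col4a3 had 307, 387, 306, 346 and 326 CPM in the 5 lean kidneys, and Col4a4 had 274, 334, 324, 320.3 and 298 CPM. Every kidney library stood above every library of any other lean tissue for both genes. The next tissue was the adrenal, with medians of 11.9 CPM for Col4a3 and 26.3 CPM for Col4a4, so the kidney median was 27.5 times the adrenal median for Col4a3 and 12.2 times for Col4a4. The adrenal values rested on the libraries that held Hsd3b1: the 4 such lean libraries had 8.10 to 17.3 CPM of Col4a3, and the 3 libraries without Hsd3b1 had 0.947 to 2.19 CPM. From the adrenal downward, neighbouring tissues of Col4a3 overlapped in their ranges, and the lowest medians were 0.607 CPM in colon and 0.406 CPM in liver. Per kilobase of exon, lean kidney medians were 32.7 CPM for Col4a3 and 30.2 CPM for Col4a4, a ratio of 1.08. The same ratio ran as low as 0.407 in mesenteric fat and as high as 1.77 in ileum. Over the 21 lean tissue medians, log2(CPM + 1) values of Col4a3 and Col4a4 had a Pearson r of 0.972, as a description in which kidney and adrenal carry much of the range.

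**Figure D1:**
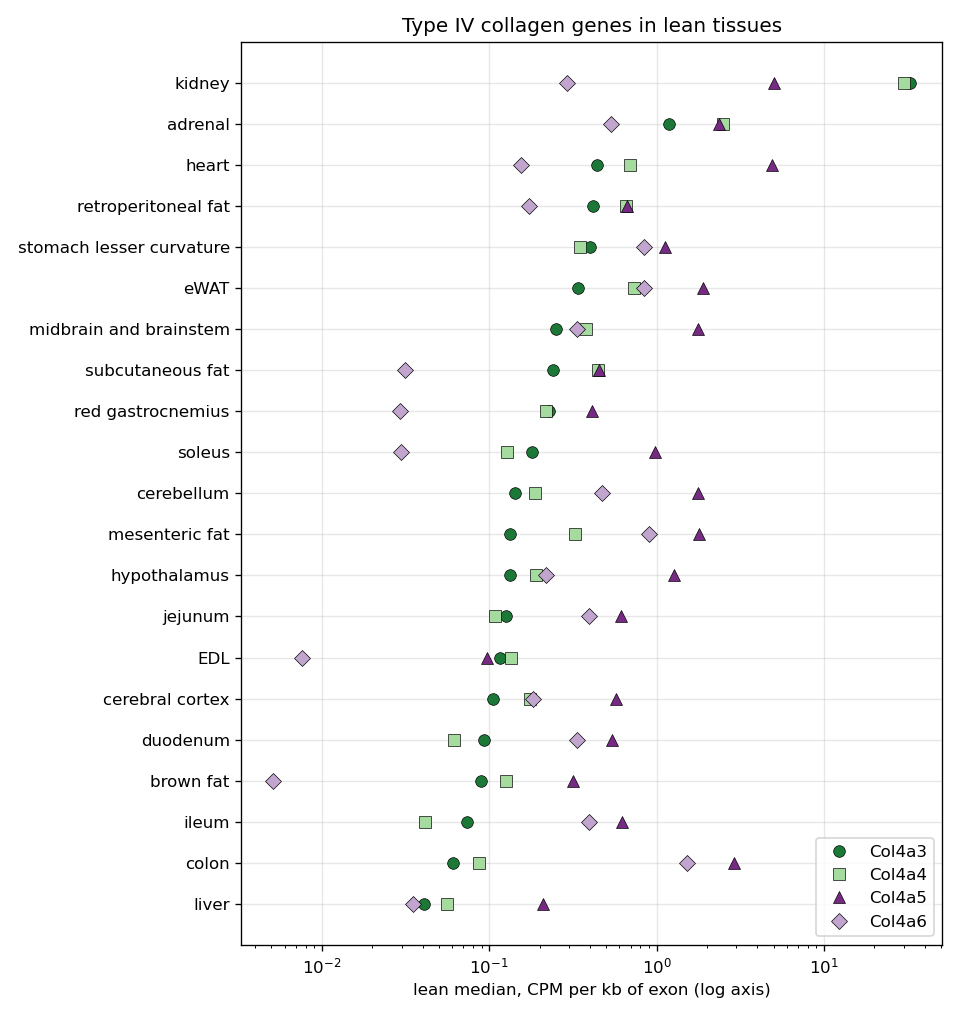
Lean median of each type IV collagen gene in 21 tissues, in CPM per kilobase of exon on a log axis, with tissues ordered by Col4a3. Col4a3 and Col4a4 lie together at 32.7 and 30.2 CPM per kilobase in kidney, while Col4a5 peaks in kidney and heart and Col4a6 in colon.

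Col4a5 was highest in kidney and heart, which did not differ beyond their spread. Lean kidneys had 28.2, 33.8, 56.5, 28.0 and 40.9 CPM and lean hearts had 32.9, 24.8, 51.6, 43.8 and 26.6 CPM. Both tissues stood above colon, the next in order, at 18.1 to 24.4 CPM. Col4a6 led in colon, with 13.2, 11.3, 12.1, 19.8 and 11.5 CPM, above the 6.88 to 7.88 CPM of mesenteric fat. Its lowest medians were those of EDL (0.0603 CPM) and brown fat (0.0409 CPM), and it passed the expression filter, a mean of at least 1 CPM, in 15 of 21 tissues. Col4a5 exceeded Col4a6 per kilobase in every lean tissue, from 1.35 times in stomach lesser curvature to 61.5 times in brown fat. The r between Col4a5 and Col4a6 over the 21 tissues was 0.618, lower than that of the other pair.

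Among the laminin chains, each gene had its own leading organ. Lama5 had 131, 194, 250.0, 127 and 216 CPM in lean kidneys and 98.1, 90.9, 149, 194 and 206 CPM in lean hearts, 2 groups that overlapped, and liver was lowest at 3.36 to 7.12 CPM. Lamc1 was highest in white fat, with medians of 433.5 CPM in retroperitoneal fat and 428 CPM in eWAT, and lowest in liver at 16.7 CPM. Lamc1 stayed above 10 CPM in all 21 lean tissue medians, the only member to do so. Lamc3 led in the adrenal, with 18.3, 34.9, 68.5, 58.3 and 65.2 CPM in lean libraries, where the lowest value is the library without Hsd3b1. The next tissues for Lamc3, eWAT, brown fat and kidney, had medians of 15.02, 14.5 and 14.4 CPM and overlapped, while heart (0.393 CPM) and EDL (0.362 CPM) were at the bottom. Lamb3 was highest in the gut: lean colon had 195, 114, 169, 125 and 187 CPM and lean ileum had 186, 156, 121, 73.7 and 105 CPM. Both overlapped each other and stood above lean stomach lesser curvature, with 56.7, 33.7, 35.0, 61.2 and 42.3 CPM. Jejunum and duodenum were lower still, at medians of 18.1 and 20.9 CPM, and the lowest medians were 2.52 CPM in EDL and 2.46 CPM in adrenal. Per kilobase, the lean Lamc1 median exceeded that of Lama5 8.91 times in eWAT, but was 0.349 times that of Lama5 in kidney.

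The contrasts between neighbouring or functionally distant lean organs gave each difference a test, limma on log2(CPM + 1) with Benjamini-Hochberg adjustment over all genes tested. In lean kidney over lean liver, 7 of 8 genes were higher and Lamb3 did not pass (0.89, SE 0.52, adjusted p = 0.127), in a comparison that called 84.7% of all genes and 58.4% as higher. The differences were 7.91 for Col4a3 (SE 0.10, adjusted p = 8.83e-16) and 7.64 for Col4a4, then 5.06 for Lama5 and 3.95 for Col4a5. Col4a6 was higher by 2.03 (SE 0.52, adjusted p = 0.00284) with 2 libraries far above the others. Kidney lean 3 and lean 5 had 16.5 and 11.3 CPM of Col4a6, and the other lean kidneys had 1.05 to 2.32 CPM. The same 2 libraries had 48.3 and 39.0 CPM of Ehf, against 15.8 to 21.8 CPM in the other lean kidneys, and 33.4 and 13.7 CPM of Lamb3, against 3.03 to 3.69 CPM. Without both libraries 6 of 8 genes were called. The share of all genes called without them is not given here, so this count is not a result about the members. In lean stomach lesser curvature over lean duodenum, 5 of 7 genes tested were higher, against 59.9% of all genes called and 23.6% called higher. They were Col4a3 (1.33, SE 0.25, adjusted p = 0.000468), Col4a4 (1.26), Col4a6 (1.24), Lamb3 (1.01) and Col4a5 (0.93, adjusted p = 0.0469). In lean colon over lean ileum, 4 of 6 genes were higher, against 41.1% of all genes called and 30.2% called higher: Col4a5 (1.79, SE 0.20, adjusted p = 1.84e-05), Col4a6 (1.74), Lamc3 (1.07) and Lamc1 (0.89). Lamb3 did not pass there (0.33, SE 0.23, adjusted p = 0.272). In lean soleus, a slow muscle, over lean EDL, a fast one, 2 of 6 genes were higher, against 56.7% of all genes called and 44.9% called higher: Col4a5 (2.03, SE 0.24, adjusted p = 3.89e-05) and Lamb3 (1.47, SE 0.18, adjusted p = 6.16e-05).

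For each member, up to 3 genes whose lean medians ran most alike over the 21 tissues are named as a description, from 3393 genes with a lean median of at least 10 CPM somewhere. For Col4a3 they were the renin gene Ren1 (r 0.929) and the kidney transporter gene Slc7a13 (r 0.907), both with their highest median in kidney. For Col4a4 they were Chst7 (r 0.879), Ren1 (r 0.860) and the proton pump gene Atp6v0d2 (r 0.851). Lamb3 ran with Serpinb5 (r 0.925), Noxa1 (r 0.922) and Sprr2a1 (r 0.912), each highest in colon. Sprr2a1 belongs to a family of near-identical genes whose reads may be shared. Lamc1 ran with the endothelial receptor gene Cd93 (r 0.940), Cavin2 (r 0.939) and Ptpn14 (r 0.928), and Lama5 with the endothelial gene Emcn (r 0.820), Ackr3 (r 0.813) and Ehd4 (r 0.762). Lamc3 ran with C330007P06Rik (r 0.913), Notch2 (r 0.884) and Apex2 (r 0.868), Col4a5 with 2810025M15Rik (r 0.862), Pam (r 0.729) and BC034090 (r 0.724), and Col4a6 with Fam129b (r 0.859), Pla2g4a (r 0.792) and Traf1 (r 0.788).

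The main question was what the high-fat diet did. Of 168 combinations of a gene and a tissue, 148 passed the expression filter, and among these 16 rose and 3 fell in DIO, by limma on log2(CPM + 1) within a tissue at an adjusted p under 0.05. All of these changes were in fat, small intestine and liver. Lamb3 accounted for 8 of the 16 rises. The 3 falls, of Lama5, Col4a3 and Col4a4, were all in eWAT. The chart of DIO over lean differences shows these groups by tissue. The counts are to be read against the share of all genes called in either direction, which was 12.4% in subcutaneous fat, 35.2% in mesenteric fat, 52.2% in eWAT, 41.3% in retroperitoneal fat, 41.8% in brown fat, 0.311% in duodenum, 5.42% in jejunum and 23.5% in liver. The corresponding counts were 2 of 7 members tested in subcutaneous fat, 2 of 8 in mesenteric fat, 5 of 8 in eWAT, 3 of 8 in retroperitoneal fat, 4 of 6 in brown fat, 1 of 7 in duodenum and in jejunum, and 1 of 5 in liver. Mesenteric DIO 2 held 269 CPM of the B cell gene Cr2, against 0.566 to 4.24 CPM in the other DIO and 1.51 to 4.98 CPM in the lean libraries. Without it 4 of 8 members were called in mesenteric fat, adding Lamc1 (0.82, adjusted p = 0.00036) and Col4a5 (0.90, adjusted p = 0.00721). That is not above the share of all genes in this setting, where 1906 of 3230 were called. Rises alone were called for 8.77% of all genes in subcutaneous, 29.7% in mesenteric, 34.8% in eWAT, 32.2% in retroperitoneal and 30.0% in brown fat, 0.280% in duodenum, 2.44% in jejunum and 19.0% in liver, and falls for 17.4% in eWAT. DIO and lean libraries lay apart, without overlap, for 15 of the 168 combinations, 1 of them (Col4a6 in subcutaneous fat) below the filter. Over all genes they lay apart for 31.1% in subcutaneous, 57.6% in mesenteric, 37.9% in eWAT, 32.2% in retroperitoneal and 28.7% in brown fat, 2.74% in duodenum, 7.68% in jejunum and 16.6% in liver.

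The median log2 difference over the members was 0.78 in subcutaneous fat, where it was -0.04 over all genes. It was -0.61 against 0.16 in eWAT, 0.65 against 0.09 in brown fat, 0.42 against 0.23 in retroperitoneal fat and 0.36 against 0.43 in mesenteric fat. Rescaling each library by the median of ratios brought the all-gene median to 0.01 in eWAT, -0.03 in brown fat, 0.06 in mesenteric fat and 0.01 in duodenum. On that scale Lamc3 was lower in DIO in eWAT (-0.91, adjusted p = 0.0266) and in brown fat (-0.34, adjusted p = 0.0105), which did not pass with limma on the CPM scale but did with edgeR (adjusted p = 0.0254 in eWAT and 0.0137 in brown fat) and DESeq2 (adjusted p = 0.00996 and 0.00584). In bulk tissue, more cells of a type and more RNA per cell cannot be told apart.

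**Figure D2:**
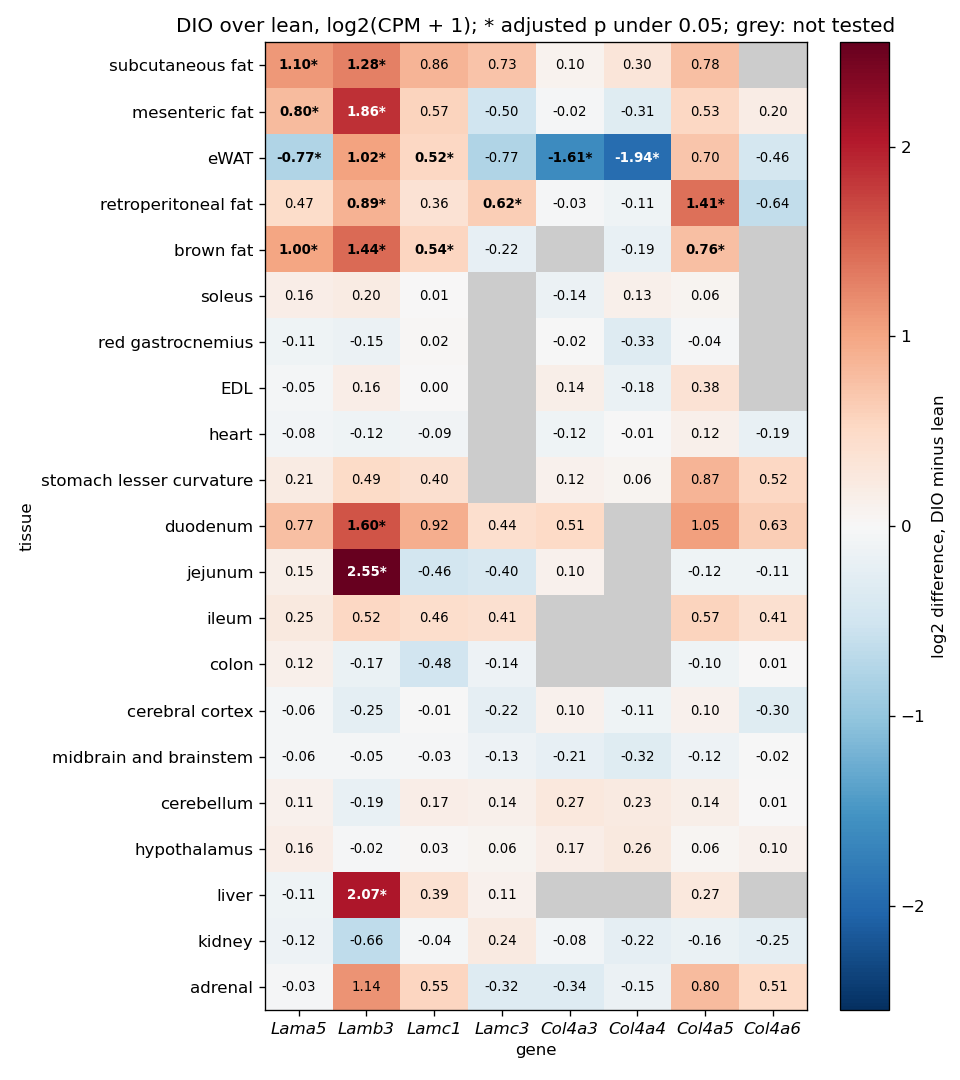
Log2 difference of DIO over lean on the log2(CPM + 1) scale for the 8 genes (columns) in 21 tissues (rows), with an asterisk where adjusted p was under 0.05 and grey where a gene was below the filter. Red cells with asterisks run down the Lamb3 column through fat, duodenum, jejunum and liver, and the blue ones are Lama5, Col4a3 and Col4a4 in eWAT.

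Lamb3 had its largest difference in the jejunum. It had 133, 87.0, 81.2, 73.3 and 79.1 CPM in DIO jejunum, against 5.96, 23.8, 10.6, 18.1 and 20.97 CPM in lean jejunum (log2 difference 2.55, SE 0.30, adjusted p = 0.000444). The lowest DIO library was above the highest lean one, and most DIO values lay within the range of lean ileum. In the duodenum Lamb3 had 58.5, 63.1, 46.7, 83.6 and 95.1 CPM in DIO, against 29.8, 21.5, 17.2, 20.1 and 20.9 CPM in lean (log2 difference 1.60, SE 0.20, adjusted p = 0.0199). The ranges were apart here as well. In the ileum, where lean levels were already high, DIO libraries had 226, 199.6, 104, 118 and 305 CPM and lean libraries had 186, 156, 121, 73.7 and 105 CPM, which overlapped (log2 difference 0.52, SE 0.30, adjusted p = 0.874). The colon difference was -0.17 (SE 0.16, adjusted p = 0.631). The effect of diet on Lamb3 differed between the 4 intestinal segments (limma F test of diet by segment, adjusted p = 0.000144, where 11% of all genes were called). Epithelial markers moved beside it in the jejunum: their summed level was 614 to 760 CPM in DIO and 871 to 994 CPM in lean, with 1 of 5 markers, Elf3, called lower (-0.79, adjusted p = 0.0114), and their part in the Lamb3 result was not tested. In the duodenum the summed endothelial markers were 58.4 to 89.9 CPM in DIO and 28.8 to 52.9 CPM in lean. The duodenum call was lost with edgeR on the recovered reads and without lean 2, lean 4 or lean 5 (adjusted p up to 0.0859). No setting or library left out removed the jejunum call.

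**Figure D3:**
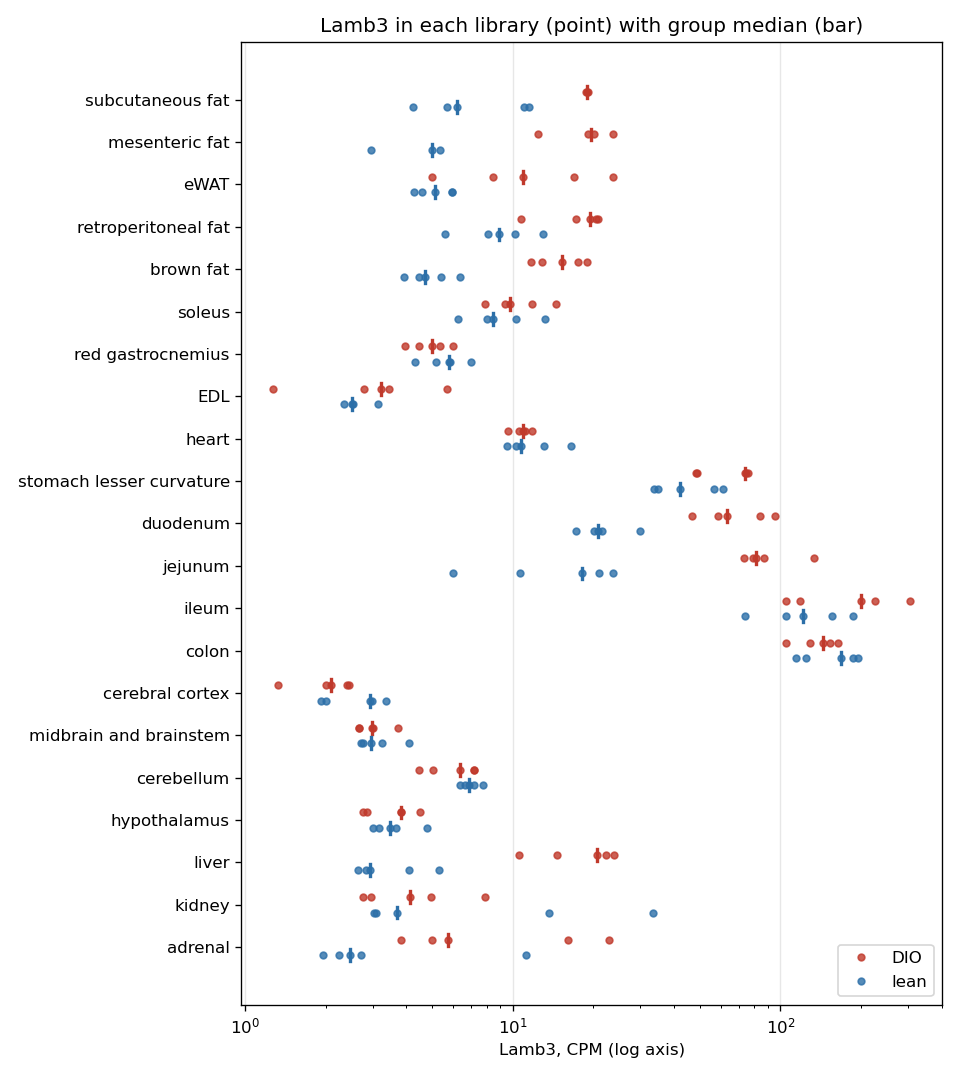
Lamb3 in every library, in CPM on a log axis, with DIO above lean in each tissue, points for libraries and bars for medians. DIO and lean libraries lie apart in subcutaneous, mesenteric and brown fat, duodenum, jejunum and liver, and overlap in ileum and colon, where lean levels are highest.

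In liver Lamb3 had 14.7, 22.3, 24.0, 20.7 and 10.5 CPM in DIO, against 5.30, 4.11, 2.84, 2.94 and 2.64 CPM in lean (log2 difference 2.07, SE 0.22, adjusted p = 6.66e-05). Every DIO liver was above every lean liver, and it was the only member called in liver, where 23.5% of all genes were called. An index of 10 genes, a covariate in another fit, was 0.258 to 0.503 in DIO and 0.582 to 0.926 in lean livers. With this covariate the Lamb3 difference was 1.58 (adjusted p = 0.032), and 66 of 2716 genes were called. As the index ranges did not overlap, that fit cannot separate the index from diet. The opposite-strand neighbour Hsd11b1, which activates glucocorticoids, had 421 to 539 CPM in DIO livers and 524 to 592 CPM in lean livers. In each fat depot every DIO library was below every lean one for Hsd11b1. In subcutaneous fat it had 71.9 to 109 CPM in DIO and 319 to 544 CPM in lean. In duodenum it had 2.36 to 3.40 CPM in DIO and 1.08 to 1.86 CPM in lean, and jejunum ranges overlapped. Its relation to Lamb3 was not tested. Summed epithelial markers were 92.3 to 137.8 CPM in DIO livers and 104 to 116 CPM in lean livers, with 0 of 3 tested called either way.

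Lamb3 was higher in DIO in all 5 fat depots. In subcutaneous fat it had 19.0, 18.9 and 19.1 CPM in DIO, against 6.22, 11.5, 11.1, 5.68 and 4.23 CPM in lean (log2 difference 1.28, SE 0.30, adjusted p = 0.0341), and in mesenteric fat 12.4, 20.1, 23.6 and 19.1 CPM in DIO, against 4.98, 2.94 and 5.37 CPM in lean (log2 difference 1.86, SE 0.26, adjusted p = 0.00353). In brown fat it had 11.7, 15.3, 17.6, 19.0 and 12.9 CPM in DIO, against 4.71, 4.48, 5.40, 6.35 and 3.94 CPM in lean (log2 difference 1.44, SE 0.14, adjusted p = 2.45e-05). Ranges were apart in these 3 depots. In eWAT it had 5.01, 17.0, 8.42, 10.9 and 23.7 CPM in DIO, against 4.58, 4.29, 5.92, 5.14 and 5.96 CPM in lean (log2 difference 1.02, SE 0.31, adjusted p = 0.0154), and in retroperitoneal fat 20.5, 19.5, 10.8, 17.3 and 20.8 CPM in DIO, against 10.2, 8.87, 8.11, 13.00 and 5.59 CPM in lean (log2 difference 0.89, SE 0.22, adjusted p = 0.00746). In these depots the lowest DIO library lay within the lean range. The effect of diet on Lamb3 did not pass a test of difference between the 4 white depots (adjusted p = 0.243, with 31.9% of all genes called). Without eWAT lean 1 and lean 3 the eWAT difference was 1.03 (adjusted p = 0.0495). Without a filter the calls were lost in subcutaneous fat (adjusted p = 0.054) and in eWAT (adjusted p = 0.0516). In subcutaneous fat the call was also lost without any one of DIO 1, DIO 2, DIO 3, lean 1 or lean 4 (adjusted p up to 0.138), although the difference remained between 1.11 and 1.43. Subcutaneous lean 2 and lean 3 held 147 and 146 CPM of the B cell gene Cr2, against 0.0715 to 0.712 CPM in the other 6 libraries. Without lean 2 and lean 3 the Lamb3 difference was 1.66 (adjusted p = 0.000173). In that setting 1361 of 3057 genes tested were called, against 394 of 3171 with all libraries.

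Lama5 rose in 3 fat depots and fell in eWAT. In subcutaneous fat it had 113, 91.4 and 96.0 CPM in DIO, against 49.2, 52.4, 42.3, 37.6 and 49.8 CPM in lean (log2 difference 1.10, SE 0.13, adjusted p = 0.0038). In brown fat it had 49.3, 51.4, 64.0, 46.1 and 59.8 CPM in DIO, against 33.0, 30.4, 24.2, 26.4 and 20.0 CPM in lean (log2 difference 1.0, SE 0.13, adjusted p = 0.000127). Both sets of ranges were apart, and no alternative or library left out removed either call. In mesenteric fat it had 87.6, 52.8, 72.0 and 70.7 CPM in DIO, against 42.7, 42.5 and 34.0 CPM in lean (log2 difference 0.80, SE 0.18, adjusted p = 0.015). The ranges were apart there too, but the call was lost with edgeR, with DESeq2 and without any one of the 3 lean libraries (adjusted p up to 0.0637). The median gene of mesenteric fat was itself up by 0.43, and after rescaling each library by the median of ratios the median gene stood at 0.06, and Lama5 at 0.40 and no longer past the threshold. In eWAT Lama5 had 22.4, 61.3, 30.7, 38.0 and 66.7 CPM in DIO, against 84.2, 60.9, 85.5, 56.4 and 66.2 CPM in lean (log2 difference -0.77, SE 0.27, adjusted p = 0.027). The ranges overlapped, and the 2 highest lean values belong to lean 1 and lean 3, without which the difference was -0.58 (adjusted p = 0.154). The call was also lost without a filter (adjusted p = 0.0792) and on leaving out any one of DIO 1, DIO 3, DIO 4, lean 1 or lean 3 (adjusted p up to 0.0701). Over the 4 white depots the effect of diet on Lama5 differed (adjusted p = 0.00302), and it still differed without those 2 libraries (adjusted p = 0.0223). Retroperitoneal Lama5 gave 0.47 (SE 0.29, adjusted p = 0.221), and 0.80 (adjusted p = 0.0318) without DIO 3, which held lymphoid markers, and lean 2, which held muscle markers.

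Endothelial marker genes moved beside Lama5 in these depots. The sum of Eng, Egfl7, Emcn, Selp and Sele was 376 to 446 CPM in DIO and 199 to 327 CPM in lean subcutaneous fat, with 2 of 4 tested called higher. In mesenteric fat it was 278 to 397 CPM in DIO and 235 to 267 CPM in lean, with 1 of 4 called higher. In brown fat it was 239.9 to 298 CPM in DIO and 112 to 163 CPM in lean, with 3 of 4 called higher. In eWAT it was 167 to 305 CPM in DIO and 274 to 361 CPM in lean, with 2 of 4 called lower. The direction of the marker sum was that of Lama5 in these 4 depots, and its part in the Lama5 result was not tested. Macrophage markers also moved: their sum was 1322 to 4057 CPM in DIO eWAT and 120 to 178 CPM in lean eWAT, with 4 of 4 called higher. In retroperitoneal fat the macrophage sum was 1051 to 3280 CPM in DIO and 89.3 to 174 CPM in lean. Fibroblast markers summed to 941.5 to 1131 CPM in DIO and 292.3 to 392.5 CPM in lean brown fat. Their part in the changes of the members was not tested.

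**Figure D4:**
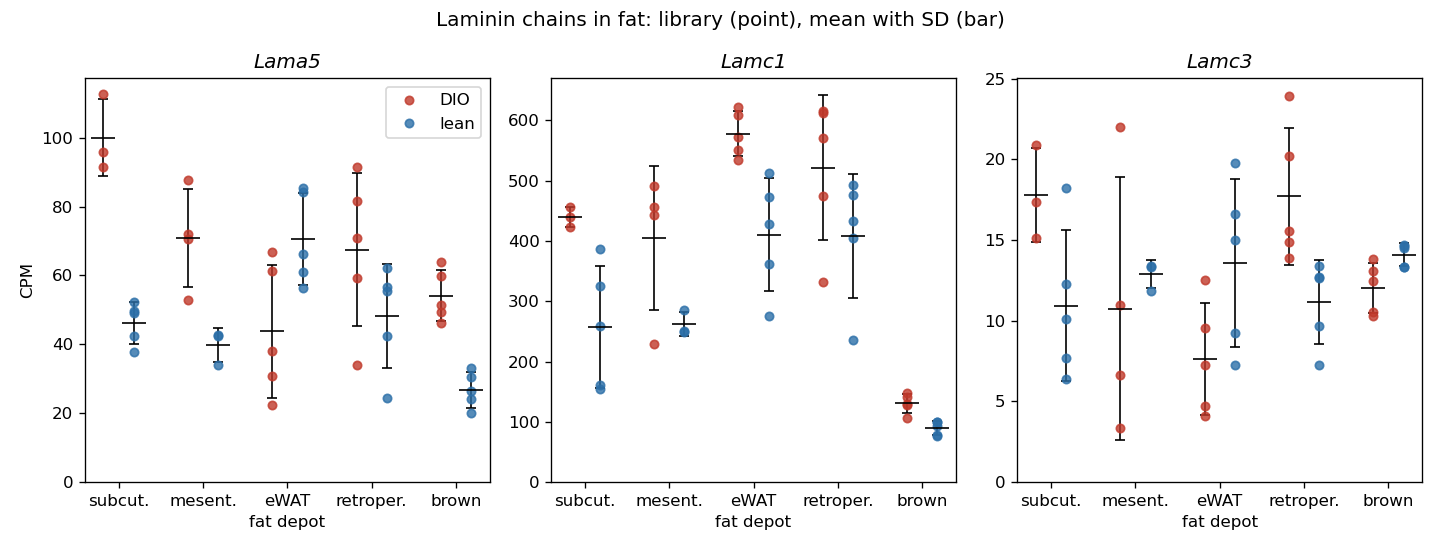
Lama5, Lamc1 and Lamc3 in 5 fat depots in CPM, with DIO left of lean, points for libraries and bars for mean and SD. Lama5 is higher in DIO in subcutaneous, mesenteric and brown fat and lower in DIO in eWAT, whereas Lamc1 means are higher in DIO in each depot.

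Lamc1 rose in eWAT and brown fat by less than 1 log2 unit. It had 535, 572, 550.5, 622 and 609 CPM in DIO eWAT, against 361, 276, 428, 513 and 474 CPM in lean eWAT (log2 difference 0.52, SE 0.17, adjusted p = 0.0202). The ranges were apart, but the call was lost after rescaling, with edgeR, with DESeq2, in a single fit over all libraries, and without lean 1 (adjusted p = 0.0535). Without both lean 1 and lean 3, eWAT Lamc1 gave 0.50 and was not called either (adjusted p = 0.0935). In brown fat it had 107, 147, 141, 128 and 129.6 CPM in DIO, against 93.5, 77.5, 99.8, 100.0 and 77.0 CPM in lean (log2 difference 0.54, SE 0.10, adjusted p = 0.00148). That call was lost in the single fit alone. Subcutaneous Lamc1 had DIO values of 456, 439 and 423 CPM, all above the lean values of 326, 162, 154, 387 and 258 CPM, yet did not pass (log2 difference 0.86, SE 0.32, adjusted p = 0.117). The 2 lowest lean values are the libraries with lymphoid markers, and without them the difference was 0.46 (adjusted p = 0.029). In that setting 1361 of 3057 genes tested were called, against 394 of 3171 with all libraries. Lamc3 rose in retroperitoneal fat, with 20.2, 14.9, 13.9, 23.9 and 15.6 CPM in DIO, against 9.68, 12.7, 7.28, 13.4 and 12.6 CPM in lean (log2 difference 0.62, SE 0.20, adjusted p = 0.0241). The ranges were apart, and the call was lost after rescaling, with edgeR and DESeq2, and without DIO 1, DIO 4 or lean 1 (adjusted p up to 0.0633). In eWAT Lamc3 gave -0.77 and did not pass with limma (adjusted p = 0.0529), while edgeR, DESeq2 and the single fit (adjusted p = 0.00986) called it lower in DIO. In limma's test, the effect of diet on it differed between the white depots (adjusted p = 0.0318), but not without eWAT lean 1 and lean 3 (adjusted p = 0.0551).

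Col4a3 and Col4a4 fell in eWAT and in no other tissue tested. Col4a4 had 0.487, 1.86, 1.42, 1.28 and 4.25 CPM in DIO eWAT, against 16.7, 4.38, 16.3, 7.77 and 6.06 CPM in lean eWAT (log2 difference -1.94, SE 0.38, adjusted p = 0.00113). Every DIO library was below every lean one. Col4a3 had 0.278, 0.620, 0.817, 0.412 and 2.13 CPM in DIO, against 9.36, 1.52, 9.24, 3.40 and 2.72 CPM in lean (log2 difference -1.61, SE 0.40, adjusted p = 0.00468). DIO 5 lay within the lean range. Lean 1 and lean 3 had the highest values of both genes, and they held markers of epithelium. Across lean 1 to lean 5, Elf3 had 13.04, 0, 10.5, 0 and 0.0514 CPM, Ehf had 20.6, 0, 18.1, 0 and 0.103 CPM and Pax8 had 11.8, 0.268, 10.8, 0 and 0 CPM, all factors of epithelia. DIO eWAT had 0 to 0.0443 CPM of Elf3, 0.760 to 1.58 CPM of Ehf and 0 CPM of Pax8. Summed over all 5 epithelial markers, DIO eWAT had 21.4 to 52.9 CPM and lean eWAT 54.0 to 114 CPM, with 1 of 4 tested, F11r, called lower. Without lean 1 and lean 3, Col4a3 still fell by 0.98 (adjusted p = 0.0246) and Col4a4 by 1.40 (adjusted p = 0.00815) on the log2 scale. The part of epithelium in the remainder was not tested.

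**Figure D5:**
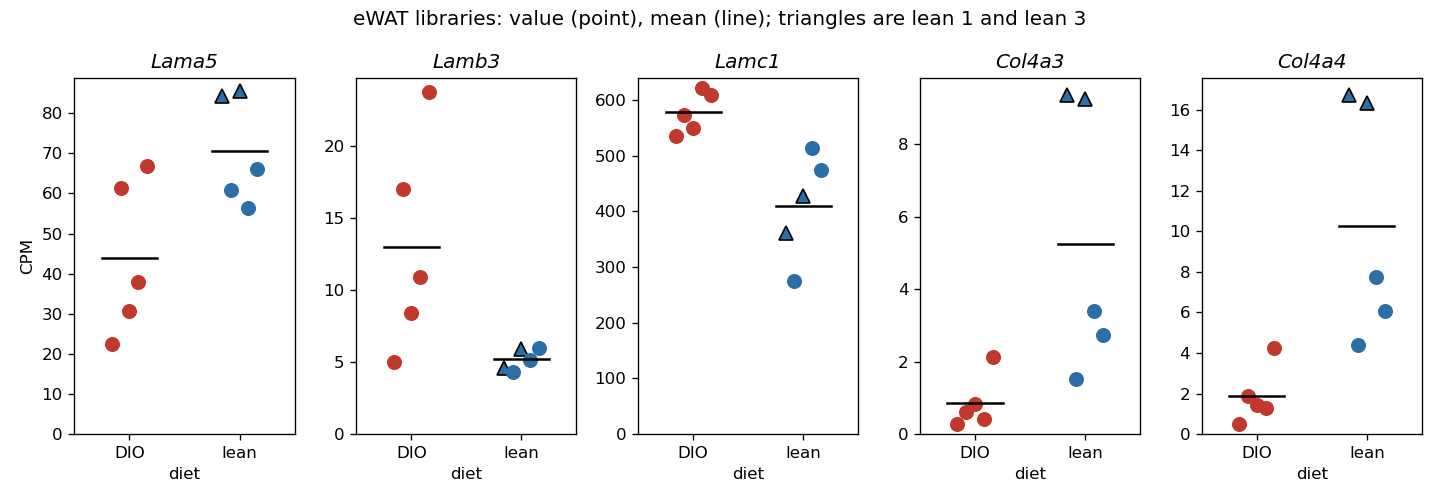
Lama5, Lamb3, Lamc1, Col4a3 and Col4a4 in each eWAT library, in CPM from 0, with DIO left of lean, lines for means and triangles for lean 1 and lean 3. Both triangles are the highest lean points for Lama5, Col4a3 and Col4a4, and the other 3 lean libraries still lie above most DIO libraries for Col4a3 and above all for Col4a4.

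The eWAT fall of the pair was set against the other white depots. In retroperitoneal fat Col4a3 gave -0.03 (SE 0.22) and Col4a4 -0.11 (SE 0.28). In mesenteric fat they gave -0.02 and -0.31, and in subcutaneous fat 0.10 and 0.30. The effect of diet differed between the 4 depots for Col4a3 (adjusted p = 0.0132) and Col4a4 (adjusted p = 0.0101). Without eWAT lean 1 and lean 3 neither passed that test (adjusted p = 0.109 and 0.0757). In kidney, where both genes are abundant, Col4a3 averaged 317 ± 35.0 CPM in DIO and 334 ± 33.5 CPM in lean (SD, n = 5 each) and Col4a4 averaged 265 ± 22.5 CPM in DIO and 310.0 ± 23.9 CPM in lean (SD, n = 5 each). Neither kidney difference passed with limma (adjusted p = 0.731 and 0.178), while DESeq2 on the recovered reads called Col4a4 in kidney. Of 3018 genes tested in kidney, DESeq2 called 109 and limma 2.

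Col4a5 rose in retroperitoneal and brown fat, and Col4a6 was called in neither direction in any of 15 tissues. In brown fat Col4a5 had 4.33, 4.97, 6.21, 4.33 and 3.12 CPM in DIO, against 3.42, 2.16, 2.12, 1.84 and 1.93 CPM in lean (log2 difference 0.76, SE 0.16, adjusted p = 0.0031). The lowest DIO value lay below the highest lean value, that of lean 1. In retroperitoneal fat it had 8.37, 13.2, 9.94, 17.5 and 7.62 CPM in DIO, against 3.07, 4.50, 0.178, 8.86 and 5.75 CPM in lean (log2 difference 1.41, SE 0.47, adjusted p = 0.0312). The ranges overlapped, lean 3 was far below the others, and the call was lost under 5 of 8 alternatives and without DIO 2, DIO 4 or lean 1. Its pair mate Col4a6 had 0.794, 0.738, 0.903, 0.448 and 0.922 CPM in DIO retroperitoneal fat and 1.38, 0.720, 0.355, 4.92 and 3.57 CPM in lean (log2 difference -0.64, SE 0.37, adjusted p = 0.195), so the difference of the pair mate had the opposite sign. For Col4a6, 1 tissue, the duodenum, had an unadjusted p under 0.05, and edgeR and DESeq2 each called 1 tissue, retroperitoneal fat.

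No member was called by limma in muscle and heart, brain, stomach, ileum, colon, kidney or adrenal. In the 3 muscles and heart, 0 of 25 tests passed, 1 had an unadjusted p under 0.05, and edgeR and DESeq2 called 0. The differences ran from -0.33 to 0.38 there. Shares of all genes called were 1.24% in soleus, 2.63% in red gastrocnemius, 0% in EDL and 0.0702% in heart. In the 4 brain regions, 0 of 32 tests passed, 2 had an unadjusted p under 0.05, edgeR and DESeq2 called 0, and differences ran from -0.32 to 0.27. Of all genes, 0.0292% were called in midbrain and brainstem and 0% in cerebral cortex, cerebellum and hypothalamus. In stomach lesser curvature, ileum and colon, where 0.0303%, 0% and 0% of all genes were called, 0 of 19 tests passed and 4 had an unadjusted p under 0.05, with 0 by edgeR and 0 by DESeq2. In kidney and adrenal, with 0.0663% and 0.148% called, 0 of 16 passed, 1 had an unadjusted p under 0.05, edgeR called 0 and DESeq2 called 1. The adrenal Lamb3 difference of 1.14 (SE 0.55, adjusted p = 0.431) did not pass. The 3 libraries without Hsd3b1 had 11.2 to 22.9 CPM of Lamb3. The others, 3 DIO and 4 lean libraries, had 3.83 to 5.71 CPM in DIO and 1.95 to 2.72 CPM in lean. In those the limma difference was 0.80 and did not pass (adjusted p = 0.198). With so few libraries, ranges can lie apart by chance. Neither the muscles nor the brain regions showed a member whose diet effect differed between tissues, where 0% of all genes passed and no member had an unadjusted p under 0.05.

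In the duodenum the calls depended on a single library and on the tool. Lean 3 had 57.3 CPM of Lamc1, 64.9 CPM of Lama5 and 9.49 CPM of Col4a5, while the other 4 lean libraries had 13.3 to 26.1, 28.4 to 46.3 and 2.08 to 4.76 CPM. The DIO libraries had 43.7, 57.0, 43.7, 49.2 and 53.3 CPM of Lamc1, 63.9, 69.1, 61.0, 73.1 and 89.1 CPM of Lama5 and 7.24, 11.1, 8.96, 11.8 and 10.3 CPM of Col4a5. Lean 3 thus lay just above the DIO range for Lamc1 and within it for Lama5 and Col4a5, whereas its Lamb3 value was the lowest of the lean libraries. It also had 644 CPM of Ehf, against 21.6 to 106.5 CPM in the other lean libraries and 187 to 907 CPM in DIO. With all libraries limma within the tissue called only Lamb3 and edgeR called 0 members. DESeq2 called Lama5, Lamb3 and Col4a5, and the single fit called these 3 and Lamc1. Of 3216 genes tested, limma called 10, edgeR 8, DESeq2 170 and the single fit 563. Without lean 3, all 7 members tested were called higher in DIO, among them Col4a5 (1.30, adjusted p = 0.00303), Lamc1 (1.21) and Lama5 (0.93), as 1225 of all genes then passed. The effect of diet on Lamc1 differed between the intestinal segments (adjusted p = 0.0353) and kept this call without 27 of the 40 libraries, each left out in turn.

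Partner genes of the basement membrane were followed from a list of 25 matrix partners, integrins and other receptors. The other laminin, type IV collagen, nidogen, perlecan and agrin genes were not analysed here. These counts stand against the shares of all genes called in each depot, 12.4% in subcutaneous fat, 41.8% in brown fat, 35.2% in mesenteric fat, 52.2% in eWAT, 41.3% in retroperitoneal fat and 23.5% in liver. In eWAT, retroperitoneal fat, mesenteric fat and liver the share of partners called was below that of all genes. In subcutaneous fat 4 partners rose of 21 tested, led by the leucine-rich matrix gene Prelp (2.60), the hemidesmosome linker gene Dst (1.37) and the laminin receptor gene Itga6 (1.10, SE 0.23, adjusted p = 0.0203). Itga6 had 309, 268 and 294 CPM in DIO and 191, 111, 93.2, 134 and 164 CPM in lean. In brown fat 9 rose and 2 fell of 18, among them Prelp (1.96), the fibronectin gene Fn1 (1.19) and Ntng2 (1.16). In mesenteric fat 6 rose of 22, led by Prelp (2.26) and the integrin gene Itga4 (2.10). In eWAT 7 rose and 2 fell of 21, with the protease inhibitor gene Timp1 (4.30), Itga4 (2.89) and Fn1 (2.35) at the top and the integrin ligand gene Npnt (-1.25) falling. In retroperitoneal fat 6 rose and 1 fell of 21, the fall being that of the gelatinase gene Mmp9 (-1.95). The median difference of the partners was 0.39 in subcutaneous fat, 0.54 in brown fat, 0.62 in mesenteric fat, -0.16 in eWAT and 0.03 in retroperitoneal fat, beside all-gene medians of -0.04, 0.09, 0.43, 0.16 and 0.23. In liver 3 rose and 1 fell of 18, with the sulfatase gene Sulf2 (1.36, adjusted p = 0.00021) the largest.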

How the data were processed

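RNA was sequenced from poly(A)-selected, strand-marked libraries, per the labels' protocols. FastQC, STAR, HTSeq and DESeq2 were used, per the submitters' processing notes, with neither versions nor a genome build stated there. The deposited table holds CPM values, counts per library total that the authors call normalized counts, for 13153 genes of chromosomes 1, 2, 3, X and the start of 4, and 1 column was not used. All values (100% within 0.001 read) came out as whole reads in 204 libraries, and the genes held 12.97 to 23.1% of a library's reads. Names came from GENCODE M21 for 13139 IDs.

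Each tissue was fitted with limma 3.58.1 in R 4.3.3 on log2(CPM + 1) over genes averaging at least 1 CPM, so fold changes of low genes are understated, with Benjamini-Hochberg adjustment over all genes tested and a threshold of 0.05. Scripts were tested on simulated data. Alternatives were a pseudocount of 5, a minimum of 10 CPM or none, rescaling by the median of ratios, edgeR 4.0.16 and DESeq2 1.42.0 on the recovered reads, a single fit, an index of 10 genes as covariate, and leaving libraries out. The p-values measure the spread between libraries, which can be technical, since the labels name no mice.

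All 8 genes are named, with at most 4 genes of the partner list per tissue and up to 3 genes of highest Pearson r over lean tissue medians. Results of some genes of these lists are not reported here. Members and lists were chosen with earlier results of these data known.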

Additional observations from a re-analysis of the deposited data

Results flagged for a closer look

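In 16 of 281 groups of 4 to 10 libraries, 1 library lay far from the others by Dixon's criterion, which chance meets in about 1 in 20 groups. In fat and liver these were Col4a5 in brown fat lean 1 (3.425 CPM, others 1.84 to 2.16), Lama5 in liver lean 2 (7.12 CPM, others 3.36 to 4.06), Lamc1 in liver lean 4 (11.46 CPM, others 16.4 to 18.3) and Col4a5 in liver DIO 3 (3.946 CPM, others 1.29 to 1.82). In the gut they were Lamb3 in jejunum DIO 1 (133.3 CPM, others 73.3 to 87.0), Col4a5 and Col4a6 in colon DIO 5 (30.95 CPM, others 15.2 to 18.8, and 25.78 CPM, others 9.07 to 12.7) and Col4a6 in colon lean 4 (19.79 CPM, others 11.3 to 13.2). Both genes of the Col4a5 and Col4a6 pair were thus high in the same colon library. In the adrenal they were Lamb3 in lean 1 (11.23 CPM, others 1.95 to 2.72) and Lamc1 in DIO 2 (634.3 CPM, others 136 to 261), which are libraries without Hsd3b1, as well as Lamc1 in lean 2 (231.1 CPM, others 130.7 to 149.5) and Col4a6 in lean 4 (8.619 CPM, others 2.93 to 4.56). In muscle, heart and brain they were Lamc1 in soleus lean 3 (124.4 CPM, others 87.9 to 97.3), Col4a4 in EDL DIO 3 (2.969 CPM, others 0.460 to 1.03), Col4a6 in heart lean 3 (5.85 CPM, others 0.408 to 1.81) and Col4a4 in cerebellum DIO 3 (5.907 CPM, others 1.33 to 2.43).

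The effect of diet differed between tissues for 6 combinations, by limma's F test of diet by tissue. Between the white fat depots the adjusted p was 0.00302 for Lama5, 0.0101 for Col4a4, 0.0132 for Col4a3 and 0.0318 for Lamc3. Between the intestinal segments it was 0.000144 for Lamb3 and 0.0353 for Lamc1.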

How the results depend on the processing

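Member calls in white fat numbered 12 and kept within 8 to 15. No difference of a called gene changed sign. In brown fat 4 calls became 5 after rescaling, with edgeR and with DESeq2, each adding Lamc3 lower in DIO, and 2 in the single fit over all libraries. Of 2771 genes tested in brown fat, 1157 were called by limma, 1218 after rescaling, 1205 with edgeR, 1261 with DESeq2 and 530 in the single fit. In muscle and heart 0 became 1 once the 10-gene index entered as covariate (Lama5 in soleus). With that covariate 221 of 2827 genes were called in soleus, against 35 without it. In stomach and intestine 2 calls became 1 with edgeR, 4 with DESeq2 and 6 in the single fit. Calls over all genes rose as well: of 3216 tested in duodenum, limma called 10, edgeR 8, DESeq2 170 and the single fit 563. In stomach lesser curvature the single fit called 474 of 3295 genes, against 1 by limma. Leaving out each library gave 1 to 8 member calls in stomach and intestine, the 8 without duodenum lean 3. In liver, kidney and adrenal 1 call became 2 with DESeq2 and 3 in the single fit. Over all genes, DESeq2 called 109 of 3018 in kidney, against 2 by limma. The single fit called 997 of 3370 in adrenal, against 5 by limma. Genes differing in diet effect between white depots fell from 4 to 2 at a minimum of 10 CPM and to 1 without eWAT lean 1 and lean 3, a choice made after seeing the data, as was leaving out kidney lean 3 and lean 5. Between intestinal segments 2 became 1 without a filter and 1 to 4 on leaving out each library. At a minimum of 10 CPM, which tests fewer genes, stomach over duodenum kept 1 of 5 calls, colon over ileum 2 of 4 and soleus over EDL 0 of 2. Otherwise the cause was not tested.

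Depth limits genes near 1 CPM, such as Col4a3 and Col4a4 outside kidney and adrenal, most in the shallowest library, where 1 CPM is 6.58 reads. No paired analysis was possible because the labels give no replicate numbers shared between DIO and lean libraries.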
